A study of Mus musculus with 15 samples.

Results

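The mammary luminal and prolactin pathway genes Mfge8, Elf3, Elf5, Ehf, Gata3, Prlr, Stat5a, Stat5b, Foxa1 and Esr1 were looked up by gene name in 2 RNA-Seq datasets from NMuMG cells, an epithelial line from normal mouse mammary gland. Of the 10 genes, 8 were found in both tables, among 13893 genes in the first and 15023 in the second, and Prlr and Esr1 were not analysed here. The first dataset held 11 lines with 1 RNA sample each, all of which carried the shRNA against Pcbp1 (shPCBP1), an RNA-binding protein gene. It comprised the unaltered shPCBP1 line and CT clones 1 to 3, treated with Cas9 without a gene-specific guide RNA (4 lines together), FAM3C KO clones 1 to 3, LIFR KO clones 1 to 3, and 1 FAM3C/LIFR double KO line. Each knockout line grew from a single CRISPR-Cas9 edited colony. The second dataset compared 2 samples of NMuMG cells with 2 samples of shPCBP1 cells. Its controls are NMuMG cells with no treatment in the labels and cells with a scrambled shRNA (shSCR) in the text of the study. Nothing says that these samples came from separate cultures, so p-values measure only the spread between them.

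Luminal cells line the ducts and alveoli of the mammary gland and are of a hormone-sensing kind, marked by the estrogen receptor (Esr1), its pioneer factor Foxa1 and the prolactin receptor (Prlr), and of a progenitor and alveolar kind that makes milk. Gata3 is a zinc finger transcription factor that maintains luminal fate, and Elf3, Elf5 and Ehf are epithelium-specific ETS transcription factors, of which Elf5 drives alveolar differentiation. Prolactin binding to its receptor activates the kinase JAK2, which phosphorylates STAT5A and STAT5B, and these bind milk protein genes as dimers. Mfge8 encodes a secreted milk fat globule protein that bridges phosphatidylserine and integrins. All libraries had high levels of the epithelial markers Krt8 (218 to 1302 CPM), Krt18 (402 to 1202 CPM) and Cdh1 (149 to 362 CPM), where CPM is counts scaled to library size. Epcam, the other epithelial marker looked up, was not analysed here. Vim, a mesenchymal marker, was also high, at 474 to 1443 CPM in the libraries other than the double KO.

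The genes lie on 5 chromosomes of GRCm38. Ehf (chr2:103263433-103303278, minus strand) and Elf5 (chr2:103411688-103450989, plus strand) are neighbours 108409 bases apart, and Stat5b (chr11:100780731-100850724, minus strand) and Stat5a (chr11:100859351-100885169, plus strand) are paralogs in opposite orientation, 8626 bases apart. Gata3 (chr2:9857078-9890034), Elf3 (chr1:135253575-135258568), Mfge8 (chr7:79133768-79149060) and Foxa1 (chr12:57540628-57546916) are on the minus strand. Reads that Stat5a and Stat5b share could be divided or dropped by the counting, so their separate levels are uncertain. Stat5a also shares 72 bases with Stat3 on the opposite strand. Annotated antisense genes overlap all 4994 bases of Elf3 and 1614 bases of Gata3, which also overlaps 2 other annotated genes, and the strand setting of the counting is not given in the sources used here. Elf3 had a whole number of reads (within 0.05) in 2 of 15 libraries and Gata3 in 9 of 15, against 14 or 15 of 15 for each other gene.

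The 250 bases before a start of transcription were read from RefSeq promoters (GRCm38.p6), which matched 7 of the 8 genes, all but Ehf. They are shown, 5′ to 3′ on the gene's strand, for Elf3, Gata3 and Foxa1, which changed after Pcbp1 knockdown, and for Mfge8, the gene with a call against shPCBP1 in LIFR KO. The windows are chr1:135258473-135258722 for Elf3, chr2:9878601-9878850 for Gata3, chr12:57546112-57546361 for Foxa1 and chr7:79149061-79149310 for Mfge8, all on the minus strand. The Gata3 and Foxa1 windows lie inside the gene spans given above, and the Elf3 window does in part. They precede a start within the span and do not describe other starts. Capitals mark matches, on either strand, to the letters of a STAT site (TTCNNNGAA), an ETS site (AGGAAG), the zinc finger motif AGATAA (the GATA letters), a forkhead site (TGTTTAC) or an E-box (CAGGTG).
Elf3: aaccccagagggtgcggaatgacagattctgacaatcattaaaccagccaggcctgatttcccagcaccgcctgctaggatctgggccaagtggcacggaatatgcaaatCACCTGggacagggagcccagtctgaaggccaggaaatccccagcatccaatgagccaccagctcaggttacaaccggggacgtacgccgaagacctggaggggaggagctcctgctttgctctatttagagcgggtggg
Gata3: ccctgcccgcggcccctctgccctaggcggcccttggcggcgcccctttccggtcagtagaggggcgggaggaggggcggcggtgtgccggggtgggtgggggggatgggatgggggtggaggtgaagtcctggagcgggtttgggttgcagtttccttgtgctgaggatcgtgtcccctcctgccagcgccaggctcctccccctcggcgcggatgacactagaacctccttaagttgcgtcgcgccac
Foxa1: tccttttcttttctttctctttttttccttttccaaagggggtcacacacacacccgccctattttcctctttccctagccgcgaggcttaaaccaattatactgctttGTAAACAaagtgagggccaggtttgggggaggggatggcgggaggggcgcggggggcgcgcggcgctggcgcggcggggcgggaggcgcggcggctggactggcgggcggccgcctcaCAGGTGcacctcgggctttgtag
Mfge8: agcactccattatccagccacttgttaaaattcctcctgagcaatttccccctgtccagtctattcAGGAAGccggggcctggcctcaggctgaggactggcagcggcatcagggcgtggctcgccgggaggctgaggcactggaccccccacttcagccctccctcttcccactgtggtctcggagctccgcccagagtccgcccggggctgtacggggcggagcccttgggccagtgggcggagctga
The STAT letters, which STAT5 dimers can bind, occurred in none of these 4 windows and in 7.02% of 32851 RefSeq promoter windows of that length. Elf3 held an E-box from base -140, and Foxa1 held a forkhead match from base -141 and an E-box from base -23. Mfge8 held an ETS match from base -184, and this window of Gata3 held no match. E-boxes occurred in 17.2% of all windows, ETS letters in 29.5%, GATA letters in 9.99% and forkhead letters in 3.17%. A match describes the letters only and is no evidence of binding.

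Several facts of the datasets touch the results. The lowest values of each library imply 16031859 to 46901675 reads per library in the first dataset and 53032197 to 56496392 in the second. Pcbp1 measured 287 and 312 CPM in NMuMG against 14.1 and 14.2 CPM in shPCBP1. Fam3c was at 26.4 to 42.9 CPM in FAM3C KO and 47.0 to 59.4 CPM in shPCBP1. Lifr was at 14.6 to 34.9 CPM in LIFR KO and 25.8 to 40.2 CPM in shPCBP1, so it overlapped, and it was at 10.5 to 19.2 CPM in FAM3C KO. The guide pairs removed a short coding segment, so the transcript level is no check of the LIFR KO labels, and the study's methods state that edited lines were screened by PCR and then by immunoblotting. Clones 2 and 3 of LIFR KO and the double KO stood apart by the GC content of genes. Across 12581 genes, Spearman's correlation of GC content with the difference from the shPCBP1 lines was -0.758, -0.745 and -0.704 in these libraries, against 0.07 in LIFR KO clone 1 and -0.288 to 0.241 in the other 7. Stat5a, Elf3 and Mfge8 have GC-rich transcripts, at the 89.5th, 83.6th and 82.5th percentile of genes, while Ehf is at the 14.7th percentile.

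The first comparison asked how luminal identity and STAT5 genes differ after loss of Pcbp1. Ehf and Elf3 fell in shPCBP1 cells, Gata3 and Foxa1 rose from low levels, and Stat5b rose by a smaller amount. Mfge8, the most abundant of the genes, changed little. Of the 7 genes that averaged 0.5 CPM or more, 3 were higher and 3 lower at an adjusted p under 0.07 (limma), the study's threshold, but this test called 80.1% of all 11384 genes (42.1% higher and 38% lower), so the share called is near the background, and 89% of all genes did not overlap between the groups. Gata3, Foxa1 and Ehf changed at least 2-fold, as 14.6% of all genes did, and their absolute log2 fold changes ranked at percentiles 95.01, 94.9 and 93.6 of all genes. Gata3 and Foxa1 averaged 0.337 and 0.311 CPM in NMuMG and passed the filter of 0.5 CPM only through shPCBP1. At such NMuMG levels only a rise could be tested, so their calls and ranks are no separate support for the rise.

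**Figure D1:**
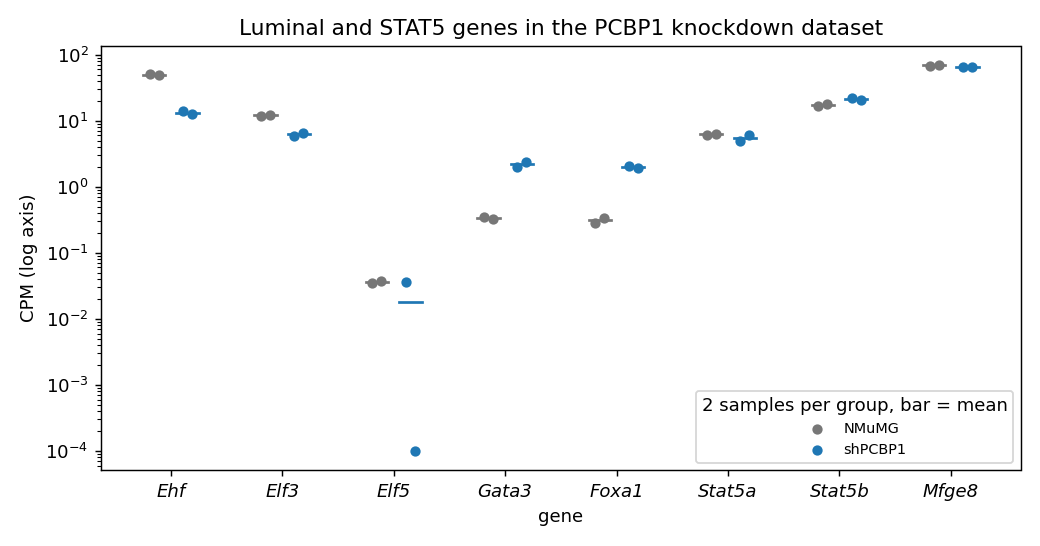
CPM (log axis) of the 8 genes in the 2 NMuMG samples (grey) and 2 shPCBP1 samples (blue) of the second dataset, with bars at the mean. Ehf and Elf3 sit lower and Gata3 and Foxa1 higher in both shPCBP1 samples, and the Elf5 point at 0.0001 CPM is a value with no read.

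Among the ETS factors, Ehf measured 51.2 and 48.9 CPM in the NMuMG samples and 13.98 and 12.6 CPM in the shPCBP1 samples. Both shPCBP1 samples were far below both controls, a 3.76-fold lower mean (log2 fold change -1.90, SE 0.0515, adjusted p = 8.07e-11, limma). Elf3 measured 11.9 and 12.2 CPM in NMuMG against 5.89 and 6.53 CPM in shPCBP1, again without overlap (log2 fold change -0.95, SE 0.0754, adjusted p = 4.91e-07, limma). Elf5 was nearly absent. It had 2 reads in each NMuMG sample (0.0355 and 0.0378 CPM) and 2 and 0 reads in the shPCBP1 samples (0.0359 and 0.0001 CPM, the latter the value that stands for 0), at or under a floor of 3 reads in each library, so no fold was computed.

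Gata3 measured 0.354 and 0.321 CPM in NMuMG (20 and 17 reads) against 1.99 and 2.37 CPM in shPCBP1 (111 and 128 reads). The shPCBP1 mean was 6.45 times the NMuMG mean (log2 fold change 2.38, SE 0.161, adjusted p = 1.25e-07, limma). Foxa1 measured 0.283 and 0.340 CPM in NMuMG (16 and 18 reads) against 2.04 and 1.92 CPM in shPCBP1 (114 and 104 reads). Its shPCBP1 mean was 6.37 times the NMuMG mean (log2 fold change 2.34, SE 0.160, adjusted p = 1.36e-07, limma). Both luminal fate regulators thus rose by similar folds, and both stayed far below Ehf in CPM. With a pseudocount of 1 CPM, which pulls low genes toward no change, the log2 fold changes of Gata3 and Foxa1 were 1.25 and 1.19.

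For the STAT5 genes, Stat5b measured 16.5 and 18.2 CPM in NMuMG against 22.2 and 20.3 CPM in shPCBP1 (log2 fold change 0.29, SE 0.0604, adjusted p = 0.00112, limma). Stat5a measured 6.16 and 6.24 CPM in NMuMG against 4.98 and 6.13 CPM in shPCBP1, and the 95% interval of its log2 fold change of -0.16 ran from -0.39 to 0.07 (adjusted p = 0.172, limma). The second shPCBP1 sample lay close to the controls. Without that sample the value of Stat5a was -0.31 (adjusted p = 0.0397, limma), in a fit whose spread came from the NMuMG samples alone, and without the first it was -0.015. After a correction for GC content it was also -0.31 (adjusted p = 0.0108, limma). Mfge8 measured 68.3 and 69.3 CPM in NMuMG against 65.9 and 65.5 CPM in shPCBP1, 0.955 of the control mean (log2 fold change -0.07, SE 0.0268, adjusted p = 0.0418, limma). The fall of Mfge8 was small. Leaving out 1 sample ended its call in 3 of 4 fits at a similar size, with log2 fold changes of -0.071, -0.061 and -0.056 (adjusted p = 0.107 without shPCBP1 sample 1, 0.148 without shPCBP1 sample 2 and 0.132 without NMuMG sample 2, limma), and after the GC correction it was -0.21 (adjusted p = 7.68e-06, limma). The GC-corrected value of Stat5b was 0.19 (adjusted p = 0.00766, limma). An exact permutation test of 2 against 2 samples cannot go below p = 0.333 and was at that value for each of the 7 genes.

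Per kilobase of transcript, the order in NMuMG was Mfge8 (14.7 CPM per kb), Ehf (8.97), Elf3 (5.44), Stat5b (3.14), Stat5a (0.869), Foxa1 (0.0936), Gata3 (0.0848) and Elf5 (0.00624). The ranges of Foxa1 and Gata3 overlapped, and those of the other neighbours in the order did not. In shPCBP1 the order was Mfge8 (14.0), Stat5b (3.83), Elf3 (2.80), Ehf (2.39), Stat5a (0.779), Foxa1 (0.596), Gata3 (0.547) and Elf5 (0.00307). Ehf moved from the second to the fourth place, below Stat5b and Elf3, and the ranges of Foxa1 and Gata3 overlapped here too.

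The other genes of the pathway, grouped in lists chosen with earlier results known, give the setting of these changes. The counts called in each list stand beside 80.1% of all genes called in this test (42.1% higher and 38% lower). No list was tested as a set, so a count called is no result about a list. Of 12 tested genes of prolactin receptor, JAK2 and STAT5 signaling, 7 were higher and 3 lower in shPCBP1, with a median log2 fold change of 0.19 against 0.02 over all genes. Cish, a feedback inhibitor that STAT5 induces, was higher (1.78), as was Cav1, caveolin (0.78), while Jak2 (-0.75) and the phosphatase gene Ptpn6 (-1.40) were lower. The feedback inhibitor genes of the Socs family were mixed, with Socs2 lower (-0.71), Socs3 higher (0.57) and Socs1 not called (-0.30). Ptpn6, at 0.226 and 0.343 CPM in shPCBP1, passed the filter only through NMuMG. Of 14 STAT5 target and milk genes, 8 were in the table and 5 passed the filter. Of these 5, 4 were higher, among them Wnt4 (3.95), Ccnd1, cyclin D1 (0.98), and the lipid droplet gene Plin2 (0.63). The milk casein gene Csn3, the only casein gene tested, was lower (-0.92), at 0.517 to 0.556 CPM against 0.999 to 1.22 CPM. The median of the 5 tested genes was 0.63, and they do not speak for the list.

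Of 12 other luminal transcription factors and partners, 6 were higher and 4 lower, with a median of 0.23. Grhl1 (1.10) and the GATA cofactor gene Zfpm1 (0.88) were higher and Notch1 (-0.96) was lower. Gata2, a paralog of Gata3, measured 0.914 and 1.15 CPM in shPCBP1 against 0.0001 and 0.0190 CPM in NMuMG. It passed the filter only through shPCBP1, so only a rise could be tested. Of 6 genes of luminal keratins and epithelial adhesion, 5 were lower and 1 higher, with a median of -0.41. Among them were Krt7 (-3.49), Muc1 (-0.85), Cdh1, E-cadherin (-0.65), and Krt19 (-0.17).

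Of 6 luminal progenitor and alveolar genes, 3 were higher and 3 lower, with a median near 0 (-0.00015). Lmo4 (-1.51) and Tspan8 (-0.89) were lower, and Itgb3, the integrin of luminal progenitors (0.50), and Cebpb (0.42) were higher. Of 10 hormone-sensing luminal genes, 6 were in the table and 2 passed the filter, Areg and Ly6a. Areg, the EGF family ligand downstream of the estrogen receptor, was higher (log2 fold change 1.57). Ly6a was at 35.2 and 37.5 CPM against 0.0532 and 0.0755 CPM. It passed the filter only through shPCBP1, so only a rise could be tested. These 2 genes do not speak for the list. Of 3 tested genes of MFGE8 receptors and the milk fat globule membrane, Itgb5 (0.43) and Itgb1 (0.41) were higher and Itgav (-0.08) was lower.

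Markers of other cell types moved as well. All 6 tested mesenchymal and stromal markers were higher in shPCBP1, with a median of 1.48, including Fn1 (3.45), Snai2 (1.93), Zeb2 (1.54) and Cdh2 (1.42), and the sum of the 9 markers in the table was 1313 to 1347 CPM against 536 to 557 CPM. Snai2, at 0.319 and 0.415 CPM in NMuMG, passed the filter only through shPCBP1. Pdgfrb was under 0.5 CPM in every sample. The sum of 9 basal and myoepithelial markers was 6.11 to 6.54 CPM against 53.7 to 55.6 CPM, nearly all of it Mylk (-3.34), while 7 of the 9, among them Krt5, Krt14 and Trp63, were under 0.5 CPM in every sample and Krt17 was at 0. Of blood and immune markers Cd68 was higher (0.56) and Ptprc and Cd3e were under 0.5 CPM. No adipocyte or endothelial marker was tested, since all 8 in the table were under 0.5 CPM. The part of these markers in the changes of Ehf, Elf3, Gata3 and Foxa1 was not tested. In bulk RNA a change in the share of cells of a type and a change in RNA per cell cannot be told apart.

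The second set of comparisons asked what loss of FAM3C or LIFR does in shPCBP1 cells. None of the 8 genes passed the threshold in FAM3C KO (limma), where 0.309% of all genes did and Ehf, Foxa1 and Gata3 (3 genes) had an unadjusted p under 0.05, as 10.2% of all genes did. Mfge8 was lower in LIFR KO, and Mfge8 and Gata3 were higher in FAM3C KO than in LIFR KO. Median log2 fold changes over the 8 genes were -0.12 in FAM3C KO and -0.32 in LIFR KO, against -0.01 and -0.16 over all 12621 genes tested. Because both knockouts are compared with the same 4 shPCBP1 lines, their fold changes are not independent of each other.

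**Figure D2:**
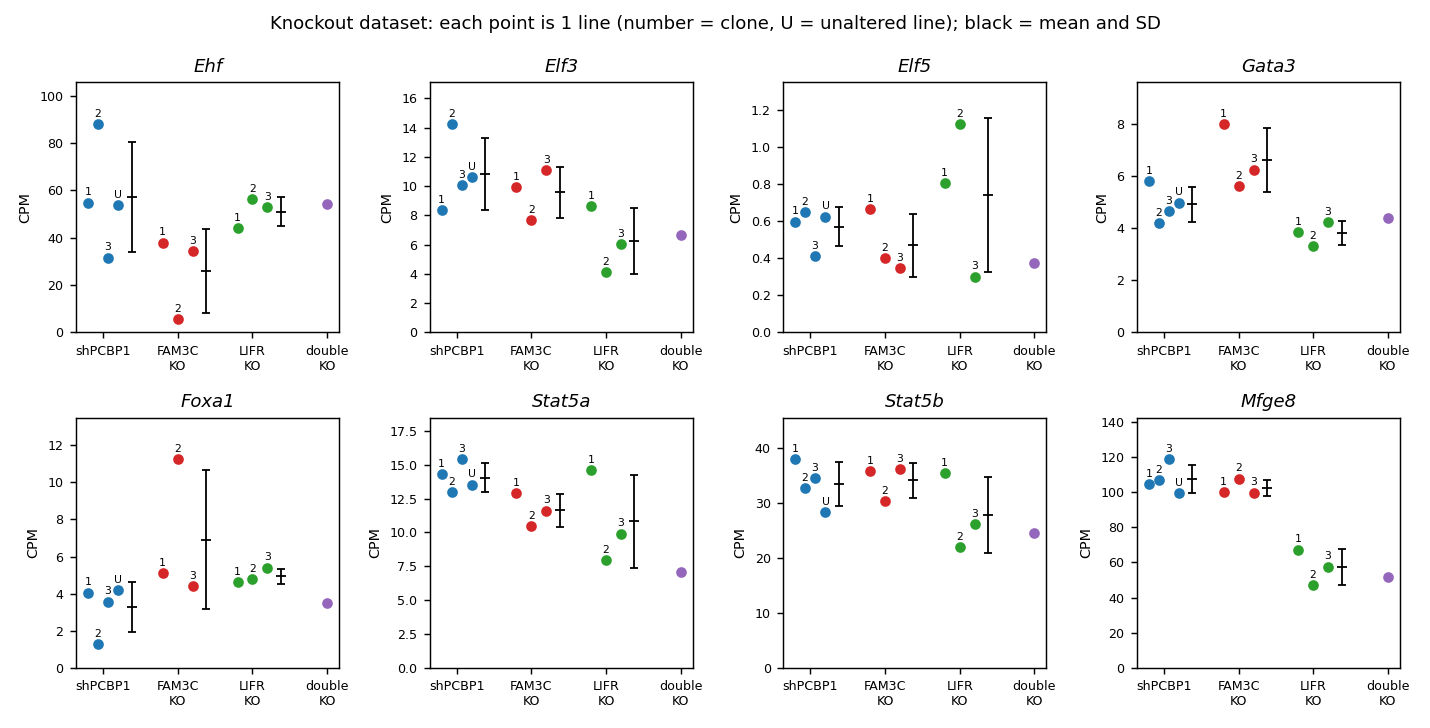
CPM of the 8 genes in the 11 lines of the first dataset, with a panel for each gene, a point for each line, and black marks for the mean and SD of a group. Mfge8 lies below all shPCBP1 lines in every LIFR KO clone and in the double KO, and FAM3C KO clone 2 has the lowest Ehf and the highest Foxa1.

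Mfge8 was at 99.7, 105, 107 and 119 CPM in the unaltered line and CT clones 1 to 3. The LIFR KO clones 1 to 3 measured 67.4, 47.2 and 57.6 CPM, so every LIFR KO clone lay below every shPCBP1 line. The LIFR KO mean was 0.534 of the shPCBP1 mean, with a log2 fold change of -0.92 (SE 0.122, adjusted p = 0.0191, limma). An exact two-sided permutation test gave p = 0.0286, the smallest that 4 lines against 3 allow. This was the call among the 8 genes, in a comparison that called 6.47% of all genes (5.55% lower) and in which 13.2% were lower without overlap. The double KO, at 51.4 CPM, was in the LIFR KO range, and FAM3C KO was at 100.1, 108 and 99.8 CPM, within the shPCBP1 range.

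The GC shift moved with the Mfge8 result. After the GC correction the log2 fold change was -0.42 (adjusted p = 0.108, limma), and with LIFR KO clone 1, which lacks the shift, as the only LIFR KO line it was -0.67 (adjusted p = 0.0277, limma). The spread in the latter fit came from the other groups alone, with the lone line assumed to vary as they do, so its p is no check of LIFR KO replicates. The call was also lost without CT clone 2 (adjusted p = 0.0812) and without CT clone 3 (adjusted p = 0.0814, limma), with log2 fold changes of -0.92 and -0.87. With the clone number as a block the log2 fold change was -0.95 (adjusted p = 0.110, limma). The unaltered line was alone in its block, so this value equals that without it, where the call was kept (adjusted p = 0.0520, limma). Clone numbers do not pair lines, so the block is no check of the call. The difference of FAM3C KO from LIFR KO was 0.85 (SE 0.131, adjusted p = 0.0271, limma), where 2 of 8 genes passed, both higher, against 8.28% of all genes (6.83% higher), and the exact permutation p was 0.1, the smallest that 3 against 3 allow. After the GC correction this difference was 0.39 (adjusted p = 0.110, limma), and leaving out FAM3C KO clone 1, 2 or 3 ended its call (adjusted p = 0.120, 0.0738 and 0.120, limma).

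Among MFGE8 receptor genes, Itgb5 was lower in LIFR KO, at 11.4 to 20.1 CPM against 24.7 to 33.6 CPM in shPCBP1 (log2 fold change -0.95, adjusted p = 0.0388, limma), and higher in FAM3C KO than in LIFR KO (0.99, adjusted p = 0.0387, limma). The other 2 tested genes of that list did not pass in either comparison.

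Gata3 was at 4.99, 5.82, 4.19 and 4.67 CPM across the unaltered line and the CT clones (1 to 3), and at 8.01, 5.64 and 6.25 CPM in FAM3C KO. In LIFR KO it was at 3.84, 3.33 and 4.25 CPM and in the double KO at 4.403 CPM. FAM3C KO clones were above all LIFR KO clones, as for 16.1% of all genes, with a log2 difference of 0.78 (SE 0.191, adjusted p = 0.0477, limma). Against shPCBP1, the log2 fold changes were 0.42 in FAM3C KO (adjusted p = 0.451) and -0.36 in LIFR KO (adjusted p = 0.170, limma), and both knockouts overlapped with shPCBP1. The difference between knockouts was not called in 10 of 16 alternative fits, where it lay between 0.53 and 0.89, among them those without FAM3C KO clone 1, 2 or 3 (adjusted p = 0.179, 0.0839 and 0.131, limma) or without LIFR KO clone 2 (adjusted p = 0.174, limma).

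Foxa1 was at 4.18, 4.05, 1.29 and 3.57 CPM in the unaltered line and CT clones 1 to 3. It was at 5.09, 11.2 and 4.42 CPM in FAM3C KO, at 4.61, 4.78 and 5.403 CPM in LIFR KO and at 3.51 CPM in the double KO. All 6 single knockout clones were above all 4 shPCBP1 lines, with CT clone 2 far below the other lines and FAM3C KO clone 2 far above. The log2 fold changes were 1.06 in FAM3C KO (SE 0.418, adjusted p = 0.406, limma, and exact permutation p = 0.0571) and 0.70 in LIFR KO (SE 0.418, adjusted p = 0.238, limma, and exact permutation p = 0.0857). Neither passed the threshold. The FAM3C KO value was 0.68 without CT clone 2 and 0.65 without FAM3C KO clone 2, and the LIFR KO value was 0.32 without CT clone 2 and 1.12 after the GC correction. For comparison, 10.1% and 3.95% of all genes were higher without overlap in these comparisons.

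Ehf was at 53.7, 54.8, 88.0 and 31.6 CPM in the unaltered line and CT clones 1 to 3. In FAM3C KO it was at 37.9, 5.76 and 34.3 CPM, with clone 2 far below the rest and the other clones inside the shPCBP1 range. The log2 fold change of -1.44 (SE 0.573, adjusted p = 0.408, limma) rested mostly on FAM3C KO clone 2 and was -0.57 without it. In LIFR KO Ehf was at 44.1, 56.1 and 52.7 CPM and in the double KO at 54.1 CPM, all within the shPCBP1 range (log2 fold change -0.08, 95% interval -1.35 to 1.19). FAM3C KO clones were below all LIFR KO clones (log2 difference -1.37, adjusted p = 0.169, limma, and -0.49 without FAM3C KO clone 2), and 6.73% of all genes were lower without overlap.

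Elf3 was at 10.6, 8.36, 14.3 and 10.1 CPM in the unaltered line and CT clones 1 to 3, at 9.92, 7.70 and 11.1 CPM in FAM3C KO and at 8.62, 4.10 and 6.02 CPM in LIFR KO. The LIFR KO value of -0.82 (SE 0.259, adjusted p = 0.0824, limma) just missed the threshold. LIFR KO clone 1 was inside the shPCBP1 range, and clones 2 and 3, which carry the GC shift, were below it, as was the double KO at 6.67 CPM. After the GC correction the log2 fold change was -0.31, and without LIFR KO clone 1 it was -1.08 (adjusted p = 0.00436, limma). Elf5 was at 0.624, 0.597, 0.647 and 0.412 CPM in shPCBP1, at 0.664, 0.400 and 0.346 CPM in FAM3C KO, at 0.805, 1.123 and 0.3002 CPM in LIFR KO and at 0.375 CPM in the double KO. These values are 7 to 28 times the lowest value of their library, and the groups overlapped.

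Stat5a was at 13.5, 14.3, 13.0 and 15.4 CPM across the unaltered line and the CT clones (1 to 3), and at 12.9, 10.4 and 11.6 CPM in FAM3C KO. Every FAM3C KO clone was below every shPCBP1 line (exact permutation p = 0.0286), but the log2 fold change was small at -0.27 (SE 0.188, adjusted p = 0.728, limma), and 12.5% of all genes were lower without overlap. In LIFR KO Stat5a was at 14.6, 7.94 and 9.91 CPM, and in the double KO at 7.07 CPM. Stat5b followed the same pattern there, at 35.4, 21.9 and 26.1 CPM and 24.5 CPM, against 28.3, 37.9, 32.7 and 34.5 CPM in shPCBP1 and 35.7, 30.3 and 36.1 CPM in FAM3C KO. For both genes, the libraries with the GC shift were low and LIFR KO clone 1 was not. The LIFR KO log2 fold changes of -0.42 for Stat5a and -0.28 for Stat5b (adjusted p = 0.140 and 0.235, limma) became 0.16 and 0.063 after the GC correction and 0.057 and 0.095 with clone 1 alone. Without clone 1 they were -0.66 and -0.47, both past the threshold (adjusted p = 0.00262 and 0.0144, limma).

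**Figure D3:**
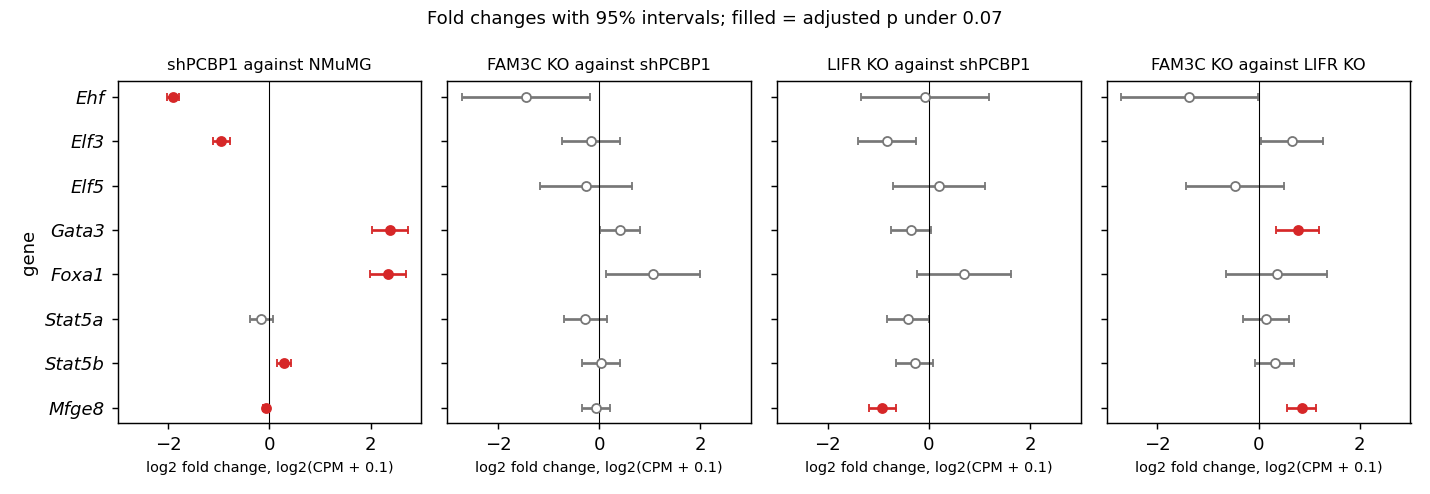
Log2 fold changes (x axis, on the log2(CPM + 0.1) scale) of each gene in the 4 comparisons, with 95% intervals and filled points at an adjusted p under 0.07. Intervals are narrower in shPCBP1 against NMuMG, where 6 genes are filled, than in the knockout comparisons, where Mfge8 (-0.92 in LIFR KO and 0.85 between knockouts) and Gata3 (0.78 between knockouts) are filled.

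Line by line, the double KO and LIFR KO clones 2 and 3 each had 5 of the 8 genes below the range of the shPCBP1 lines, where 52.0 to 53.8% of all genes were below. LIFR KO clone 1 had 2 below and 2 above, against 28.0% and 21.8% of all genes. FAM3C KO clone 2 had 4 below and 1 above, against 34.3% and 24.5%, clone 1 had 1 below and 3 above, against 25.9% and 24.7%, and clone 3 had 2 below and 2 above, against 27.2% and 24.8%.

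Ehf and Foxa1 stood at opposite ends in the same lines. CT clone 2 had the highest Ehf (88.0 CPM) and the lowest Foxa1 (1.29 CPM), and FAM3C KO clone 2 had the lowest Ehf (5.76 CPM) and the highest Foxa1 (11.2 CPM). Over the 11 lines Pearson's r of log2 values was -0.785 (permutation p = 0.020, adjusted p = 0.080 over 28 pairs of genes) and Spearman's rho was -0.473 (permutation p = 0.146, adjusted p = 0.372). Without the 2 lines farthest from the median of Ehf, FAM3C KO clone 2 and CT clone 3, r was -0.772. Without FAM3C KO clone 2 and CT clone 2, r was 0.119, so the relation rests on those 2 lines.

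**Figure D4:**
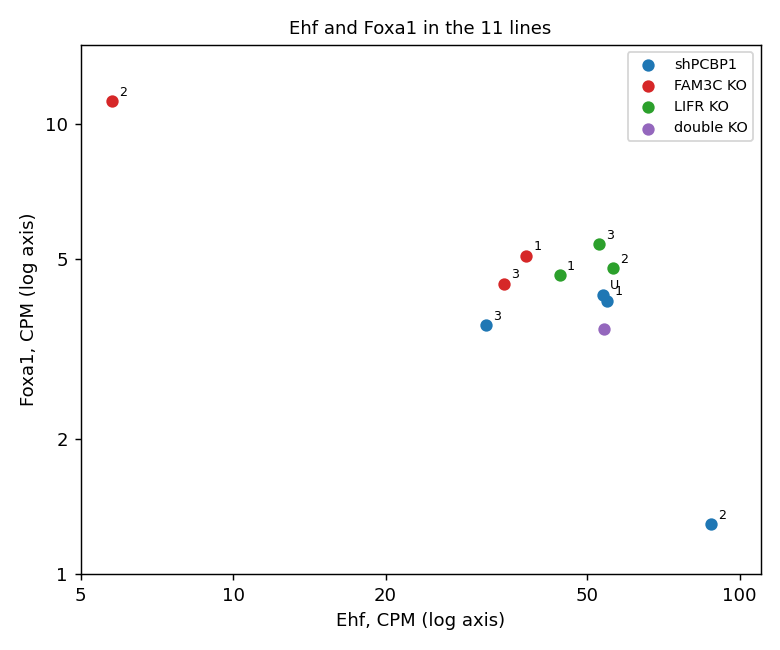
Foxa1 against Ehf (CPM, both axes log) in the 11 lines of the first dataset, coloured by group and numbered by clone (U is the unaltered line). FAM3C KO clone 2 and shPCBP1 CT clone 2 lie at opposite corners, and the other 9 lines have r = 0.119.

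Ehf and Foxa1 did not pass an adjusted p under 0.07, and the pairs that did so for Pearson's r (permutation test, 28 pairs) were among Mfge8, Elf3, Stat5a and Stat5b. For all 28 pairs, the permutations moved values freely over the 11 lines, regardless of group or GC shift. Their p-values thus do not tell a link between genes from a difference shared by a group or by the shifted lines. Stat5a and Stat5b had r = 0.837 (permutation p = 0.00185, adjusted p = 0.0259) and rho = 0.645 (permutation p = 0.0374, adjusted p = 0.333), and Mfge8 and Elf3 had r = 0.810 (permutation p = 0.00158, adjusted p = 0.0259) and rho = 0.564 (permutation p = 0.0770, adjusted p = 0.333). Without the 2 lines farthest from the median, r was 0.609 and 0.628. In the 8 lines without the GC shift, r was lower, at 0.327 and 0.243. Neither these values nor the change in r was tested. Described only by likeness over the 11 libraries, which share depth and GC shifts, the pattern of Mfge8 was most like those of Tarbp2 (r = 0.985) and Gtpbp1 (r = 0.984), and that of Elf3 most like Ssbp3 (0.972) and Tmco4 (0.969). Ehf was most like the paralogous acyltransferase genes Acnat1 (0.971) and Acnat2 (0.946), Foxa1 most like Il18rap (0.958) and Ccl7 (0.953), and Gata3 most like Zfp746 (0.966) and Rgs12 (0.951). Stat5a was most like Trim65 (0.978) and Exosc10 (0.965), Stat5b most like Kdelr1 (0.945) and Stx18 (0.943), and Elf5 most like Cdk12 (0.886) and Aqp11 (0.881).

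In the knockouts, no gene of any of the 12 lists passed in FAM3C KO against shPCBP1 (limma), where 12 of 63 tested had an unadjusted p under 0.05, against 10.2% of all genes. In LIFR KO, 6.47% of all genes passed. Krt18 (-0.72, 1 of 6 tested in its list), Areg (-0.82) and Ly6a (-2.69, with Areg 2 of 2 tested) were lower among the luminal lists. In the prolactin and STAT5 list, with 12 tested, the feedback inhibitor Socs1 was lower (-1.12) and its relative Socs2 higher (0.80). Of 13 tested luminal transcription factors and partners, Notch1 (-1.09) and the GATA cofactor Zfpm1 (-1.14) were lower and its relative Zfpm2 higher (0.59). Between knockouts, where 8.28% of all genes passed, Krt18 (0.86), Areg (0.87), Ptpn6 (1.56), Socs1 (1.48), Plin2 (0.72), Zfpm1 (1.43), Mylk (1.42) and Fn1 (0.91) were higher in FAM3C KO. An adjusted p under 0.05 would drop Krt18, Ly6a, Socs1, Socs2 and Zfpm1 in LIFR KO (0.0516 to 0.0668, limma). Between knockouts it would drop Plin2, Mylk and Fn1 (0.0535 to 0.0698, limma). The other genes named here would stay. The GC shift of 2 of the 3 LIFR KO libraries applies to these calls, and its part in them was not tested. Markers of other cell types were not called in LIFR KO against shPCBP1. Basal marker sums were 9.89 to 16.2 CPM in LIFR KO, 17.1 to 28.1 CPM in FAM3C KO and 12.6 to 18.04 CPM in shPCBP1, and mesenchymal sums were 1285 to 1938, 2079 to 2227 and 1775 to 2025 CPM.

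Both datasets hold shPCBP1 cells, but the tables were scaled separately, so no test was made across them. The CPM of all listed genes summed to 743775 to 786742 in the shPCBP1 lines of the first table and to 414786 to 415645 in the shPCBP1 samples of the second. The values of 7 of the 8 genes, all but Foxa1, were higher in the first table without overlap, as were those of 87.0% of the 10388 genes that averaged 0.5 CPM or more in both, so nothing is read from these levels.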

How the data were processed

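RNA-Seq was performed on NMuMG-derived lines, 11 in the first dataset and 4 samples in the second. The authors aligned reads from directional, rRNA-depleted libraries with Bowtie2 to GRCm38 in Partek Flow and deposited CPM. In the second dataset a value of 0.0001 CPM stands for 0. The study calls the second dataset preexisting, and its methods do not say which dataset the library protocol covers. The ratio (fold) of group means that the authors deposited was not used. Low values were whole multiples of 1 read (tolerance 0.02) for 77.3 to 79.0% and 84.3 to 84.6% of values, too few for a count test. Values were fitted as log2(CPM + 0.1) with limma 3.58.1 (R 4.3.3, mean-variance trend) for genes averaging 0.5 CPM or more, 12621 and 11384, of which 8 and 7 were the genes described. The first dataset was fitted with 3 groups together, without the double KO. The threshold was a Benjamini-Hochberg adjusted p under 0.07. Fold changes on this scale understate changes of low genes. Single genes had exact two-sided permutation tests, and correlations 100000 permutations. The limma fit was tried on simulated data with independent noise in each gene and without a GC shift. That trial is therefore no check of how a GC shift or noise shared by genes affects the fits. Positions came from GENCODE M21, since starts equalled it for 302 of 13870 genes in the first table and 14269 of 14795 in the second. GC correction was a loess (span 0.3). Genes and lists were chosen with earlier results of these data known. Named genes were the members and the 2 genes most like each member. From each list they were up to 4 genes with the largest called change after knockdown and any gene called in a knockout. Marker genes, targeted genes and the Socs genes were also named. Intervals are limma 95% intervals from the spread between samples.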

Additional observations from a re-analysis of the deposited data

Results flagged for a closer look

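The FAM3C KO and LIFR KO clones differed from each other in Mfge8 and Gata3 by a test of the difference itself. Mfge8 was 0.85 (log2) higher in FAM3C KO (SE 0.131, adjusted p = 0.0271, limma), with all 3 FAM3C KO clones above all 3 LIFR KO clones, but the difference was 0.39 (adjusted p = 0.110) after the GC correction. Its call was also lost with only the 2 groups compared (adjusted p = 0.199), with the replicate block (adjusted p = 0.0925) and without FAM3C KO clone 1, 2 or 3 (adjusted p = 0.120, 0.0738 and 0.120, limma). Clone numbers do not pair lines, so the block is no check of this call. With LIFR KO clone 1 alone, which lacks the GC shift, it was 0.60, where the spread came from the other groups alone. Gata3 was 0.78 higher (SE 0.191, adjusted p = 0.0477, limma), also in 3 of 3 clones, and was not called in 10 of 16 alternative fits, among them the GC correction (0.62, adjusted p = 0.106, limma).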

How the results depend on the processing

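No count test was run, since whole reads could not be recovered. In shPCBP1 against NMuMG, 5 to 6 genes passed in the fits that left out 1 sample, 7 after the GC correction and 6 in the other alternatives. In FAM3C KO against shPCBP1, 0 passed in all 16 alternatives. In LIFR KO against shPCBP1, 0 to 4 passed without 1 line (4 without LIFR KO clone 1), and 0 with the replicate block and 0 after the GC correction. In FAM3C KO against LIFR KO, 0 to 5 passed without 1 line (5 without LIFR KO clone 1), 1 after median-ratio rescaling, 1 after quantile normalization, 1 with LIFR KO clone 1 alone, and 0 with only the 2 groups compared, with the replicate block or after the GC correction.

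Directions turned for uncalled values. In LIFR KO against shPCBP1, Ehf was 0.087 after median-ratio rescaling and 0.056 after quantile normalization, Stat5a was 0.16 after the GC correction and 0.057 with clone 1 alone, and Stat5b was 0.063 and 0.095. In FAM3C KO against LIFR KO, Stat5a was -0.072 after quantile normalization, -0.39 after the GC correction and -0.33 with clone 1 alone, Stat5b was -0.060 with clone 1 alone and Foxa1 was -0.0082 after the GC correction. Stat5b in FAM3C KO was -0.042 with the replicate block. Without 1 line, Stat5b in FAM3C KO ranged from -0.042 to 0.12, Elf5 in LIFR KO from -0.14 to 0.67, Ehf in LIFR KO from -0.33 to 0.16, and, between knockouts, Stat5a from -0.051 to 0.38 and Foxa1 from -0.052 to 0.61. The cause was not tested.

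Same-numbered samples did not deviate together (correlations of -0.181 to 0.154 among the 10 fitted lines of the first dataset and 0.051 among the 4 samples of the second dataset), so the numbers do not pair samples. A block by these numbers is thus no check of a call. The replicate block moved the count over all genes from 39 to 15 in FAM3C KO, from 816 to 10 in LIFR KO and from 1045 to 0 between knockouts. In the same order, fitting only the 2 groups compared gave 1048, 35 and 0, and the GC correction gave 234, 41 and 72. LIFR KO clone 1 alone gave 281 in LIFR KO, median-ratio rescaling 478, an adjusted p under 0.05 359, with 587 between knockouts, and a mean of at least 1 CPM 21 in FAM3C KO. Without 1 line, in that order, the counts ranged from 3 to 27, 5 to 7234 and 1 to 6673, the highest of the last 2 without LIFR KO clone 1. Depth limits Elf5, Gata3 and Foxa1 in NMuMG, with 2 to 20 reads.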
